A study of Mus musculus with 4 samples.

Results

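Among 33368 cells sorted as CD45+ from mouse melanomas and profiled by single-cell RNA sequencing, the study's deposited annotation gives the name Myofibrobl to 351. All 351 were taken, wherever they fell, and the annotation is the only criterion used to choose them. YUMM1.7OVA is a mouse melanoma line that carries an activating Braf mutation, lacks Cdkn2a and expresses ovalbumin as a model antigen. One sample was made per group, from tumours grown in Rag2-/- mice 6 to 12 weeks old, which have no T or B cells of their own. OT-1 T cells, which recognize an ovalbumin peptide, were transferred on day 7, and tumours were isolated on day 10, 72 h after the transfer.

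NTT tumours came from the therapy-naive clone Y1.7_NTT_3A6. RTT tumours came from Y1.7_RTT_2B12, a clone made resistant to a BRAF inhibitor and kept in dabrafenib. RTT_ROSA26 tumours came from resistant cells that had received guides to the Rosa26 locus as a control, and RTT_PTGS12KO tumours from the resistant line edited in Ptgs1 and Ptgs2, the genes of the cyclooxygenases COX-1 and COX-2. NTT and RTT are single clones, and the labels give 1 tumour per condition where the study describes pools for such samples, which was not settled here. With 1 sample per group no difference between groups could be tested. Intervals below are exact 95% intervals that cover counting error only, and they contain neither the variation between tumours nor that between clones. Those of summed UMIs also leave out the variation between cells.

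Myofibroblasts are matrix-producing cells of wounds and tumours that carry a smooth muscle type of contractile apparatus, of which Acta2 is the usual marker. Mesenchymal cells of other origins, including melanoma cells that have lost their pigment programme, can share their collagens, matrix proteins and growth factors. Bone morphogenetic proteins such as BMP2 and their secreted antagonists such as gremlin are common products of mesenchymal cells. A cell without CD45, the product of Ptprc, is not the intended content of a CD45+ sort, so the number recovered depends on the sort as well as on the tumour.

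The cells named Myofibrobl were unevenly spread over the samples. The RTT tumour gave 249 of them among 7970 cells (3.12%, interval 2.75 to 3.53%). RTT_ROSA26 gave 59 of 6836 (0.863%, 0.658 to 1.11%), RTT_PTGS12KO 37 of 10296 (0.359%, 0.253 to 0.495%) and NTT 6 of 8266 (0.0726%, 0.0266 to 0.158%). RTT held 70.9% of all cells with the name. None of these 4 intervals overlapped another. The samples had been pooled and loaded 3 times, and the shares of the 3 loads ran from 2.79 to 3.64% in RTT, from 0.803 to 0.909% in RTT_ROSA26, from 0.295 to 0.476% in RTT_PTGS12KO and from 0.0351 to 0.109% in NTT, so the order was the same in each load. Whether the shares differ through the sort or through the tumours cannot be told apart.

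**Figure D1:**
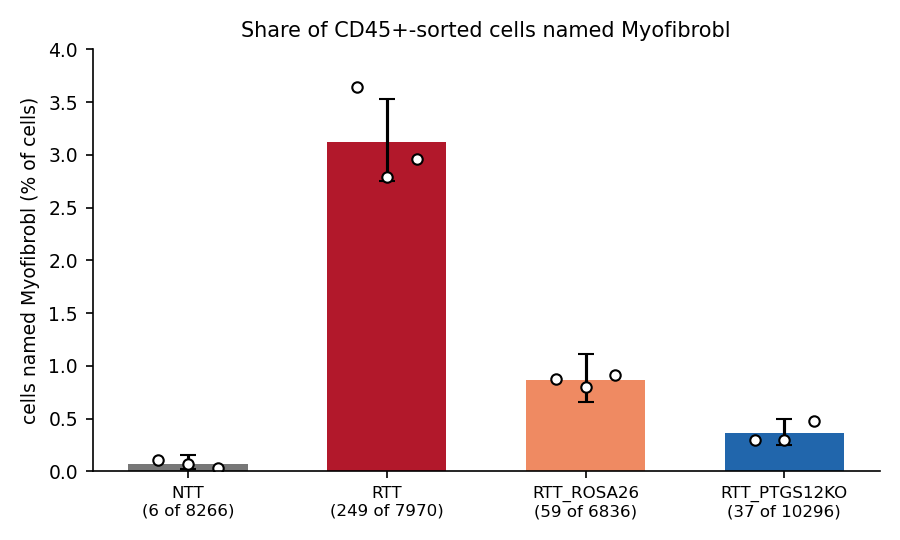
Percent of each sample's cells named Myofibrobl, with 1 bar per sample, exact 95% binomial intervals as error bars and the 3 capture loads as open circles. RTT stands at 3.12%, RTT_ROSA26 at 0.863%, RTT_PTGS12KO at 0.359% and NTT at 0.0726%, and the loads keep this order.

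These cells were large by RNA content. Their median UMI number was 33469 in RTT, 32760 in RTT_ROSA26 and 38225 in RTT_PTGS12KO, against 12442, 13208 and 12202 in all other cells of the same samples. In NTT the medians were 12951.5 and 7291.5. Summed over cells, the name held 8769010 UMIs in RTT, 2411285 in RTT_ROSA26, 1258281 in RTT_PTGS12KO and 113291 in NTT, and the levels below are these sums scaled to counts-per-million units (CPM). A limit of 3 counts for a gene with no UMI is 0.342, 1.24, 2.38 and 26.5 CPM in these sums. This limit is one-sided and lower than the upper end that the two-sided intervals have at 0. Sequencing of the whole samples gave 69332486 to 146829369 UMIs. Of the 351 cells, 2 had barcode letters that also occurred in another load, and neither pair fell within a sample.

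The name's 7 markers were strong and occurred together. All 7 were detected in 249 of the 351 cells and 6 in a further 70, whereas 26131 of the 33017 other cells had none. Only 30 other cells carried 4 or more, 17 of them in the cycling macrophage class. Mgp, which encodes matrix Gla protein, an inhibitor of calcification and a binder of BMPs (chr6:136872435-136875823, build GRCm38), stood at 1182 CPM (1159 to 1205) in RTT, 2084 CPM (2027 to 2142) in RTT_ROSA26, 408 CPM (373 to 445) in RTT_PTGS12KO and 61.8 CPM (24.8 to 127) in NTT. Mgp was thus highest in RTT_ROSA26 and lowest in NTT, with no overlap of intervals. In load 1, however, RTT_ROSA26 (1237 CPM) was not above RTT (1266 CPM), and 28.0% of the Mgp UMIs of RTT_ROSA26 lay in 1 cell.

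Cald1, the gene of the actin-binding protein caldesmon (chr6:34598500-34775473), was at 1108, 908, 1079 and 627 CPM in RTT, RTT_ROSA26, RTT_PTGS12KO and NTT. Hmga2, a chromatin protein of embryonic and tumour cells (chr10:120361275-120476469), was at 767, 608, 602 and 353 CPM. Grem1, which encodes the BMP antagonist gremlin 1 (chr2:113746164-113758646), varied little between the resistant tumours, at 617, 550 and 583 CPM, with 371 CPM in NTT. Tm4sf1, a tetraspanin-like membrane protein (chr3:57285611-57301988), ranged from 527 to 850 CPM in the resistant tumours. Col1a2, a chain of type I collagen (chr6:4504814-4541544), was at 442, 406 and 679 CPM there and at 1748 CPM in NTT.

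In all other cells the 7 markers lay between 0.520 and 6.56 CPM in every sample. Thinned to 5000 UMIs per cell, which left out 4 shallower cells in RTT, 2 in RTT_ROSA26 and none in RTT_PTGS12KO, Hmga2 was detected in 89.8, 93.0 and 94.6% of the cells named Myofibrobl and in 1.95, 2.25 and 3.10% of the others. Thinned shares rest on 1 random draw per cell. The values without thinning were 97.2, 96.6 and 97.3% against 4.66, 5.61 and 8.30%. These differences describe cells that were clustered by their expression and are no test of the name.

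The 10 genes that stood highest over the other cells were Mgp, Tm4sf1, Cald1, Cpe, Sdc2, Bmp2, Grem1, Igfbp3, Sox9 and Il11. Cpe encodes a peptide-processing enzyme (451 CPM over all 351 cells, 1.58 CPM in the others). Sdc2 encodes the heparan sulfate proteoglycan syndecan 2 (340 against 1.00 CPM), and Sox9 a transcription factor of cartilage and neural crest (325 against 1.24 CPM). Igfbp3 encodes a carrier of insulin-like growth factors (395 against 1.66 CPM), and Il11 a cytokine of the interleukin 6 family (275 against 1.04 CPM).

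The data went against the name at its defining gene. Acta2, smooth muscle actin, was at 5.82 CPM (4.33 to 7.65) in RTT, 6.22 CPM (3.48 to 10.3) in RTT_ROSA26 and 48.5 CPM (37.1 to 62.3) in RTT_PTGS12KO, where 41.0% of its UMIs came from 1 cell; NTT had 1 UMI. Tagln, another smooth muscle gene, had at most 2.51 CPM. Myh11 had no UMI, and Des had none outside RTT_ROSA26, where it was at 0.415 CPM. Actin regulators shared by many adherent cells were high instead: Tpm1, a tropomyosin, was at 999, 960 and 718 CPM in RTT, RTT_ROSA26 and RTT_PTGS12KO, against 41.5, 54.7 and 30.1 CPM in the other cells.

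Genes of fibroblasts were mixed. Of the 18 on the fibroblast and myofibroblast list, 8, 5 and 10 were at 10 CPM or more in RTT, RTT_ROSA26 and RTT_PTGS12KO. Beside Col1a2, Col3a1, the chain of type III collagen, was at 279, 182 and 302 CPM, against at most 2.75 CPM in the other cells. Dcn, the matrix proteoglycan decorin, was at 166, 85.8 and 106 CPM, against at most 1.12 CPM, and at 150, 58.9 and 9.95 CPM in the restricted cells defined below. Clec3b had no UMI, Thy1 was at 0.570, 0.415 and 1.59 CPM and Lum at 19.0, 0 and 3.97 CPM in the 3 resistant tumours. Pdgfra, the platelet-derived growth factor receptor alpha, was present at 81.3, 52.7 and 38.9 CPM. The pigment genes Mlana, Tyr, Tyrp1 and Dct and the neural crest factor Sox10 had no UMI in any of the 351 cells, nor did 8 others of the 21 genes on the melanocyte and melanoma list. The list summed to 100.1, 107 and 98.5 CPM in RTT, RTT_ROSA26 and RTT_PTGS12KO, against 25.1 to 39.4 CPM in the other cells. Most of this came from Cspg4, a membrane proteoglycan of melanoma cells and pericytes, at 57.0, 74.2 and 42.1 CPM, and from Pax3. Pax3, a transcription factor of the melanocyte lineage and of muscle precursors, was at 33.5, 17.0 and 23.05 CPM, and at 0.102, 0.0557 and 0.0687 CPM in the other cells. The cells are called here by the annotation's name, without another cell type in its place.

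**Figure D2:**
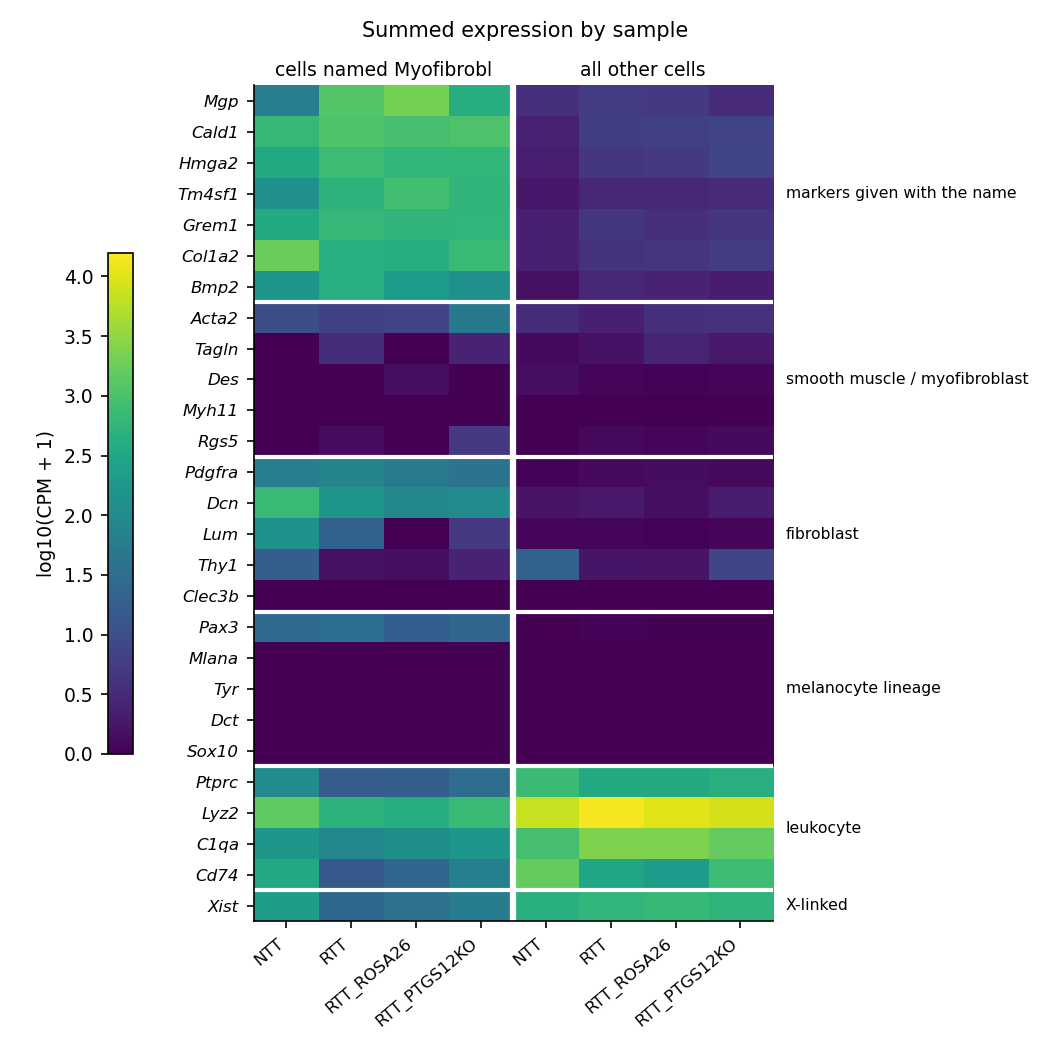
Summed expression, as log10(CPM + 1) on a colour scale, of marker genes (rows) in the cells named Myofibrobl and in all other cells of the 4 samples (columns). The 7 markers are high on the left and under 7 CPM on the right, while Myh11, Mlana, Tyr, Dct and Sox10 are dark in both.

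The cells differed in how much leukocyte RNA they carried. Ptprc was at 15.9, 17.4 and 31.0 CPM in RTT, RTT_ROSA26 and RTT_PTGS12KO, against 355, 353 and 436 CPM in the other cells. It had at least 1 UMI in 22.1, 20.3 and 29.7% of the cells, and in 8.98, 8.77 and 10.8% after thinning, where 76.7, 75.6 and 80.9% of the other cells had it. A per-cell rate over 36 leukocyte and macrophage genes separated them further. The median rate was 365, 397 and 500 CPM, but 32 of 249, 14 of 59 and 11 of 37 cells were at or above 2000 CPM, and 5 of 6 in NTT. The highest rate in RTT was 94518 CPM, and the median of that sample's other cells was 65194 CPM. The limit of 2000 was set after the values were seen, and 18 cells lay within a factor of 2 of it. No doublet caller was run.

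Xist, the long non-coding RNA of the inactive X chromosome (chrX:103460366-103483254), moved with this rate. The other cells held 582, 655 and 540 CPM of Xist in RTT, RTT_ROSA26 and RTT_PTGS12KO. The 214, 45 and 26 cells that were under 2000 leukocyte CPM and were not rich in fibroblast genes held 2.32 CPM (1.35 to 3.71), 0.521 CPM (0.0132 to 2.90) and 4.42 CPM (1.20 to 11.3). The 31, 14 and 10 leukocyte-rich cells without those rich in fibroblast genes held 137, 171 and 184 CPM. Hmga2 was nevertheless at 627, 521 and 539 CPM in these leukocyte-rich cells, against 799, 630 and 637 CPM in the leukocyte-poor cells. Y-linked genes (Ddx3y, Eif2s3y, Kdm5d and Uty) had no UMI in the cells named Myofibrobl of the 3 resistant tumours. In the CD8 T cell class of RTT_PTGS12KO these genes summed to 112 CPM.

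In all, 6 cells were rich in genes of matrix-forming fibroblasts. Some of them were also leukocyte-rich. They had 2457 or more CPM over Col1a1, Col12a1, Lum, Fbln1, Fbln2, Tnc, Adamts2 and Cdh11, where the next cell had 879. Of these cells 1 was in NTT, 4 in RTT, none in RTT_ROSA26 and 1 in RTT_PTGS12KO. Hmga2, at 353 to 767 CPM in the sums, had 0 to 3 UMIs in each of them. Xist had 3 UMIs in the NTT cell, 7 in the RTT_PTGS12KO cell and 11, 4, 0 and 0 in the RTT cells. These few cells held much of some genes: in RTT_PTGS12KO the 1 cell carried 89.5% of the sample's Col1a1 UMIs, 87.5% of Col12a1, 71.9% of Cxcl9 and all 159 UMIs of Rarres2. In RTT the 4 cells carried 60.3% of Col1a1 but 1.14% of Mgp. Results for the resistant tumours are therefore also given for the 285 cells that were leukocyte-poor and not rich in fibroblast genes, referred to as the restricted cells.

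**Figure D3:**
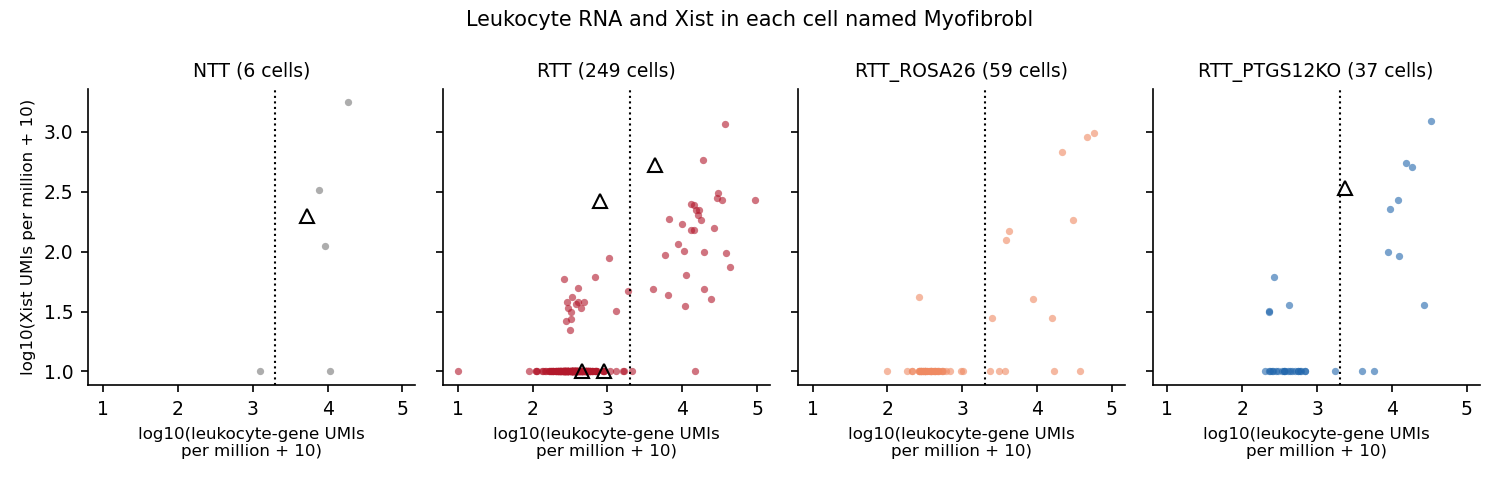
Each cell named Myofibrobl by its summed leukocyte-gene CPM (x, log10 of the value + 10) and its Xist CPM (y, log10 of the value + 10), with 1 panel per sample. Triangles are the 6 cells rich in fibroblast genes and the dotted line marks 2000 leukocyte CPM; Xist lies mostly to the right of the line.

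The collagens came from both interstitial and basement membrane matrix. The 21 collagen genes summed to 1777 CPM in RTT, 1608 CPM in RTT_ROSA26 and 2075 CPM in RTT_PTGS12KO. The other cells of these tumours had 31.9 to 44.4 CPM. Of the collagen genes in the cells named Myofibrobl, Col6a3, a chain of a microfibrillar collagen, was at 304, 446 and 296 CPM and Col18a1, of basement membranes, at 301, 224 and 241 CPM. Col1a1, the other chain of type I collagen, was at 27.3, 5.81 and 75.5 CPM. In the restricted cells Col1a1 was at 11.6, 5.21 and 6.63 CPM and Col1a2 at 397, 417 and 517 CPM. CPM here counts UMIs at the 3' end of transcripts without scaling to length, so genes were compared between samples and not with each other.

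Among glycoproteins, Fn1 (fibronectin) was at 1128, 738 and 858 CPM in RTT, RTT_ROSA26 and RTT_PTGS12KO. The 3 macrophage classes that were read out held 597 to 1438 CPM in RTT, 945 to 2136 CPM in RTT_ROSA26 and 1331 to 2186 CPM in RTT_PTGS12KO, so that Fn1 lay within their range in RTT and below each of them in the other two. Bgn, the small proteoglycan biglycan, was at 303, 359 and 505 CPM and Sparc, a collagen-binding matrix protein, at 243, 255 and 354 CPM, while both were at most 8.50 CPM in the other cells. Collagen-processing genes followed, with the collagen chaperone Serpinh1 at 198, 212 and 267 CPM against 1.13 to 1.84 CPM in the other cells, and the lysyl hydroxylase Plod2 at 132, 141 and 199 CPM. The mesenchymal regulators Twist1 (92.0, 77.1 and 65.2 CPM) and Prrx1 (107, 87.9 and 106 CPM) and the Hippo pathway coactivator Wwtr1 (189, 203 and 129 CPM) were each at most 1.26 CPM in the other cells.

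Spp1, which encodes the secreted matrix protein osteopontin, reached 10505 CPM (10437 to 10573) in RTT, 9491 CPM (9368 to 9615) in RTT_ROSA26 and 6477 CPM (6337 to 6619) in RTT_PTGS12KO. The macrophage class named for this gene had 8444, 9766 and 9760 CPM in the same samples. In the restricted cells the values were 11232, 9591 and 6442 CPM.

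Several secreted growth factors differed between the resistant tumours. Bmp2 (chr2:133552159-133562885) was at 434 CPM (421 to 448) in RTT, 204 CPM (186 to 223) in RTT_ROSA26 and 126 CPM (107 to 147) in RTT_PTGS12KO. Each of the 3 loads of RTT (382 to 456 CPM) was above every load of the other resistant tumours (88.8 to 319 CPM). Grem1, its antagonist, did not follow this order. Il11 stood at 333, 131 and 171 CPM and Igfbp3 at 454, 202 and 374 CPM. The cell richest in Il11 held 43.3% of its UMIs in RTT_PTGS12KO, so the order of RTT_PTGS12KO and RTT_ROSA26 depends on that cell. For Il11 the loads of RTT_PTGS12KO (124 to 199 CPM) and RTT_ROSA26 (101 to 173 CPM) overlapped. Those of RTT (251 to 425 CPM) lay above both. The epidermal growth factor receptor ligands Areg (180, 179 and 153 CPM), Ereg (195, 110 and 90.6 CPM) and Hbegf (93.6, 129 and 183 CPM) were all present. In RTT_PTGS12KO the cell richest in Areg held 33.2% of its UMIs. Bdnf, a neurotrophin, was at 137, 84.2 and 77.1 CPM and at most 0.357 CPM in the other cells. The receptor tyrosine kinases Pdgfra, Fgfr1 and Axl lay between 33.2 and 132 CPM.

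**Figure D4:**
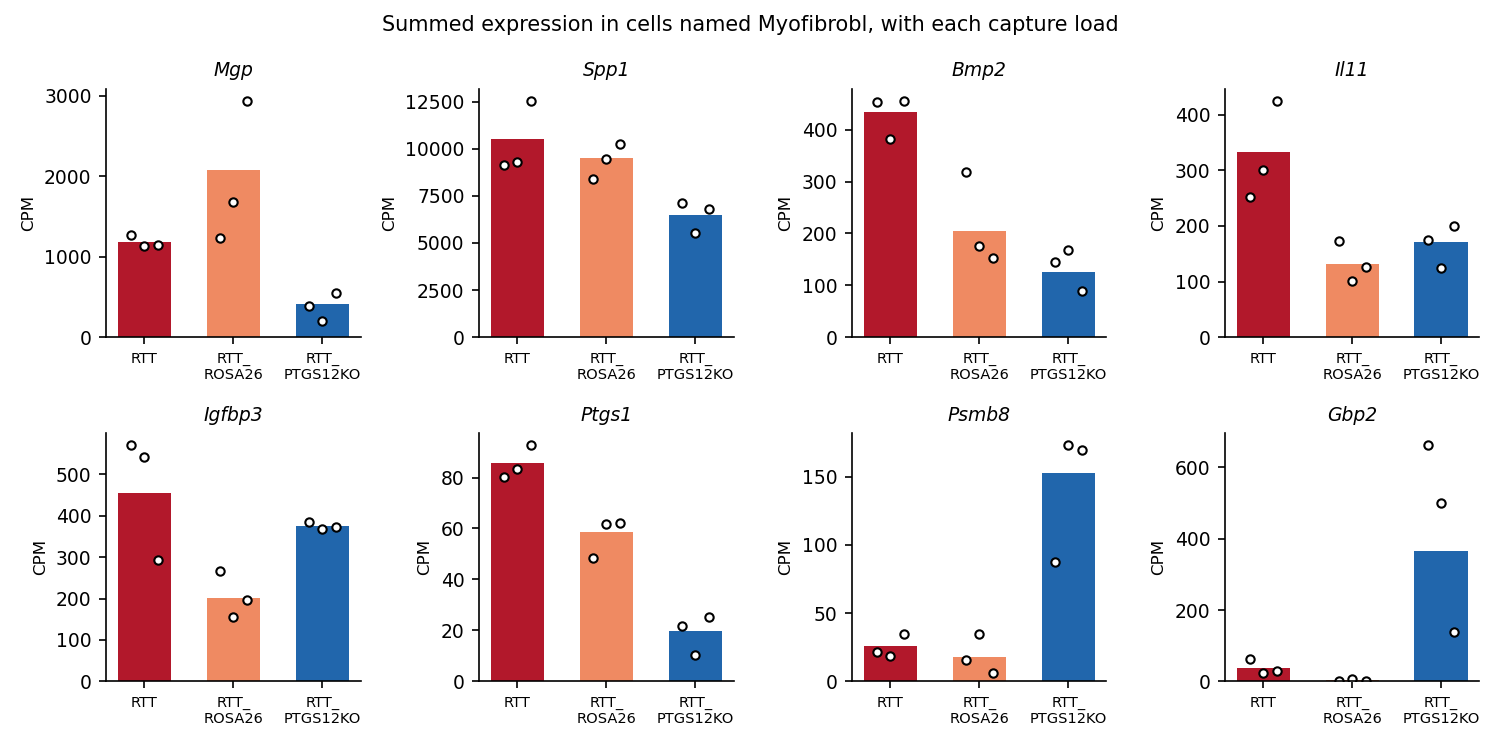
Summed expression (CPM, linear axis from 0) of 8 genes in the cells named Myofibrobl of the 3 resistant tumours, with 1 bar per sample and the 3 capture loads as open circles. In each load Bmp2 is highest in RTT, and Mgp and Ptgs1 are lowest and Gbp2 and Psmb8 highest in RTT_PTGS12KO.

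The study edited the prostaglandin-forming enzymes, so their genes were read next. The targets of the 2 guides are printed with the PAM in capitals, because their places decide what the 3' counts can show.
Ptgs1: gcacacggaaggaaacatagGGG
Ptgs2: gttgtgctcccgaagccagaTGG
By match to Ensembl transcripts (GRCm38), the Ptgs1 guide lies at chr2:36251276-36251295 in coding exon 11 of 11, 977 bases before the transcript's 3' end. The Ptgs2 guide lies at chr1:150104014-150104033 in coding exon 7 of 10, 3372 bases before the end. Both read on the strand opposite to the gene. A small insertion or deletion at these places leaves the counted end of the transcript in place. UMIs of either gene therefore do not show that it is unedited. Whether editing changed the level of either transcript was not tested.

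Ptgs1 was at 85.9 CPM (79.8 to 92.2) in RTT, 58.5 CPM (49.2 to 69.0) in RTT_ROSA26 and 19.9 CPM (12.9 to 29.3) in RTT_PTGS12KO, and no UMI was found in NTT, where 3 counts would be 26.5 CPM. The log2 ratio of RTT_PTGS12KO over RTT_ROSA26, on CPM + 1, was -1.51, and -1.84 in the restricted cells. The other cells, which the editing did not target, had a log2 ratio of -1.83. Ptgs2 was at 261, 179 and 176 CPM, and its log2 ratio between the edited and control tumours was -0.02. Ptges, the prostaglandin E synthase that acts after the cyclooxygenases, was at 161, 149 and 119 CPM in the resistant tumours and 97.1 CPM in NTT, against 1.24 to 3.28 CPM in the other cells. A Ptges UMI was in 91.2, 89.8 and 81.1% of the cells in RTT, RTT_ROSA26 and RTT_PTGS12KO, and in 48.2, 43.9 and 37.8% after thinning.

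RTT_PTGS12KO was then compared with RTT_ROSA26, the control line of the same resistant background. The 3 comparisons between samples share the RTT and RTT_ROSA26 libraries. Of 2549 genes with at least 50 CPM and 10 UMIs in the higher sample, 79 (3.1%) were at least 2-fold higher and 41 (1.61%) at least 2-fold lower. Genes of antigen presentation by MHC class I were among the higher ones: 9 of the 12 compared members of the list were at least 2-fold higher and none was lower. The median log2 ratio of the 15 members with a mean of at least 10 CPM was 2.33, against -0.02 over the 7078 genes at that level, and between 1.17 (load 2) and 2.38 (load 3) in the other settings. Psmb8, a subunit of the immunoproteasome (chr17:34197721-34201454), was at 153 against 17.8 CPM (ratio 8.56, 6.12 to 12.2). H2-K1, a class I heavy chain (chr17:33996017-34000347), was at 361 against 70.9 CPM (ratio 5.09, 4.26 to 6.102). B2m, its light chain, was at 1233 against 664 CPM (ratio 1.86, 1.73 to 1.99). RTT held 25.8 CPM of Psmb8, 97.3 CPM of H2-K1 and 644 CPM of B2m, each below RTT_PTGS12KO. H2-K1 and its relatives are similar in sequence, so their reads may be shared between them.

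Interferon-stimulated genes were higher as well. On their list 10 of 11 compared genes were at least 2-fold higher and none lower, with a median log2 ratio of 2.30 over 28 genes, Cxcl9 included, and of 1.29 (CPM + 10) to 3.98 (cells without Ptprc) in the other settings. Gbp2, an interferon-inducible GTPase (chr3:142620602-142638008), was at 365 against 2.90 CPM (459 and 7 UMIs, ratio 126, 60.5 to 314), and 30.5% of its UMIs in RTT_PTGS12KO lay in 1 cell. RTT, the unedited resistant tumour, stood between them at 38.7 CPM (34.7 to 43.0), so the size of the difference depends on which tumour RTT_PTGS12KO is set against. Its lowest load in RTT_PTGS12KO (139 CPM) was above the highest in RTT_ROSA26 (6.45 CPM). Iigp1, an immunity-related GTPase, was at 224 against 3.73 CPM (ratio 60.0, 31.2 to 133). The chemokine Cxcl10 was at 365 against 27.8 CPM, and 29.8% of its UMIs in RTT_PTGS12KO lay in 1 cell. The other cells of the same tumours showed the same direction, with log2 ratios of 3.99 for Gbp2, 1.48 for Psmb8 and 1.27 for H2-K1.

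The leukocyte-rich cells made up 29.7% of the cells in RTT_PTGS12KO and 23.7% in RTT_ROSA26 (intervals 15.9 to 47.0% and 13.6 to 36.6%). MHC class II genes, which mark antigen-presenting leukocytes, were higher too when all cells were summed, with 5 of 5 compared genes past 2-fold and summed levels of 1052 against 259 CPM. In the restricted cells class II sums were 56.4 and 45.3 CPM, and no class II gene was high enough to be compared. There, 58 of 2479 genes were at least 2-fold higher and 52 lower. Among them, 8 of 11 class I genes and 5 of 6 interferon-stimulated genes were higher, with median log2 ratios of 1.86 and 3.15. H2-K1 was at 243 against 24.0 CPM, Psmb8 at 91.8 against 2.08 CPM and Gbp2 at 232 against 1.04 CPM. A Gbp2 UMI was found in 9 of 26 restricted cells of RTT_PTGS12KO and 2 of 45 of RTT_ROSA26, and after thinning in 5 of 26 and 0 of 45. For H2-K1 the numbers were 21 of 26 and 24 of 45, and after thinning 8 of 26 and 2 of 45. A cell without a UMI may still express the gene, and one UMI does not show expression: Lyz2, a lysozyme gene of macrophages, had a UMI in 24 of 26 and 40 of 45 of these cells, and after thinning in 5 of 26 and 15 of 45. The part of free RNA in these counts was not tested.

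Cxcl9 did not keep its difference. It was at 726 against 1.24 CPM (913 and 3 UMIs, ratio 583, 199 to 2833, log2 ratio 8.34) in all cells and at 2.21 against 1.56 CPM in the restricted cells. Likewise Col1a1 (75.5 against 5.81 CPM) was at 6.63 against 5.21 CPM there, Rarres2 (at least 102-fold higher at a limit of 3 counts, from 159 and 0 UMIs, with a lower end of 81.6 in the two-sided interval) had none in either, and Ccl11 (68 UMIs against 1, ratio 130, 22.6 to 5222) had 0 UMIs in RTT_PTGS12KO. Of the 10 collagens compared 4 were at least 2-fold higher in all cells, and none of 5 in the restricted cells, whose collagen list median was -0.02 instead of 0.58. With all cells of a load, not the restricted ones, the collagen median was 1.24 in load 1, 0.00173 in load 2 and -0.11 in load 3.

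**Figure D5:**
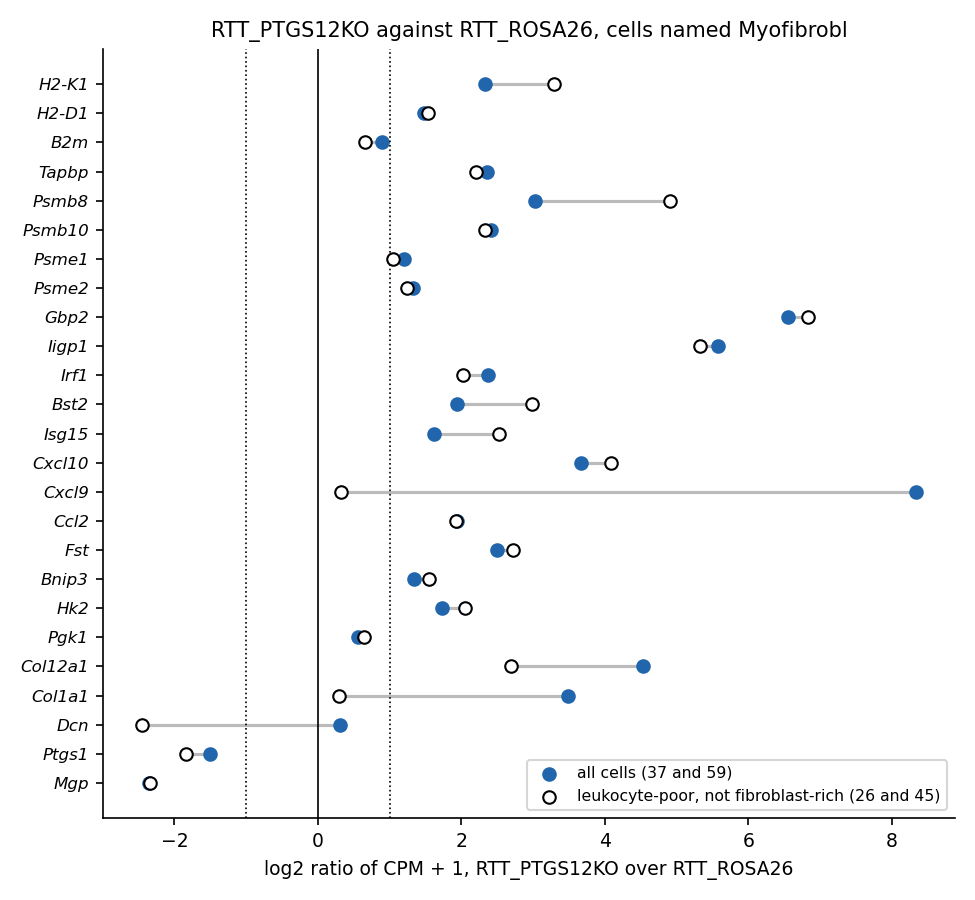
Log2 ratio of CPM + 1, RTT_PTGS12KO over RTT_ROSA26, for genes of class I presentation, interferon response, hypoxia and matrix. Filled circles use all cells and open circles the restricted cells, with dotted lines at 2-fold; Cxcl9, Col1a1 and Dcn move most between them, while H2-K1, Psmb8, Gbp2, Ptgs1 and Mgp stay past 2-fold in both.

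Because these genes were higher together, the 300 bases around their start sites (RefSeq, GRCm38.p6) were searched on both strands for the core of the interferon-stimulated response element, which is GAAA repeated after any 2 bases. It was present in at least 1 such promoter of 3.99% of all 27025 genes, of 16 of 25 matched interferon-list genes and of 4 of 15 matched class I genes. The interferon-gamma-activated site, TTC and GAA around any 3 bases, was searched in the same way and was present for 9.55% of all genes, 8 of 25 interferon-list genes and 1 of 15 class I genes. Bst2, Gbp7, Igtp, Ifitm3 and Oas1a held both. Windows of genes higher in RTT_PTGS12KO are shown with the match to the response element in capitals, 5′ to 3′ on the gene's strand.
Gbp2 (chr3:142620594-142620623): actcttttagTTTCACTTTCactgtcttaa
Gbp7 (chr3:142530273-142530302): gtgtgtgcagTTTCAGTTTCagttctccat
Bst2 (chr8:71537577-71537606): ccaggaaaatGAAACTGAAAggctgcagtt
Cxcl10 (chr5:92349083-92349112): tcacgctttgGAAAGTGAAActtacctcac
B2m (chr2:122147538-122147567): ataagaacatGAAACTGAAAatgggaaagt
Gbp2 and Gbp7 hold the element as the reverse complement. A match describes the letters in the window and not binding.

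Other groups also differed between the edited and the control tumour, where 3.1% of all genes compared were at least 2-fold higher and 1.61% lower. Of the glycolysis and hypoxia genes 6 of 16 were at least 2-fold higher and none lower (median log2 ratio 0.57, and 0.74 in the restricted cells), among them Bnip3, a hypoxia-inducible mitophagy receptor, at 360 against 142 CPM. Their sums were 6319 CPM in RTT, 7864 CPM in RTT_ROSA26 and 11234 CPM in RTT_PTGS12KO. Fst, which encodes the activin antagonist follistatin, was at 133 against 22.8 CPM (ratio 5.82, 4.27 to 8.04), with 37.7% of its UMIs in 1 cell. The monocyte-attracting chemokine Ccl2 was at 771 against 201 CPM, and at 463 against 121 CPM in the restricted cells. Genes of S phase and mitosis were lower, with 5 of 9 at least 2-fold lower and none higher (median log2 ratio -1.23), and with 2 of 9 lower in the restricted cells (-0.85). RTT_ROSA26 was the highest of the resistant tumours here: the list's 24 genes summed to 834 CPM in RTT, 1369 CPM in RTT_ROSA26 and 669 CPM in RTT_PTGS12KO, and in the restricted cells to 830, 1299 and 825 CPM. Against RTT, the median in RTT_ROSA26 was 0.70, with 21 of 22 genes higher and none of 9 past 2-fold. Of all genes with a mean of at least 10 CPM, 3211 of 7078 were higher there.

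Mgp was among the lowest genes, at 408 against 2084 CPM (log2 ratio -2.35, and -2.34 in the restricted cells). Its loads in RTT_PTGS12KO (202 to 553 CPM) did not overlap those in RTT_ROSA26 (1237 to 2940 CPM). The other genes at that end were Hba-a1 (log2 ratio -3.82), a haemoglobin chain, Cavin4 (-2.69), a caveolar protein, Mgst3 (-2.07), a microsomal glutathione transferase, and S100a8 (-2.01), for which 76.9% of the UMIs in RTT_ROSA26 lay in 1 cell and whose direction was opposite in 2 of the 3 loads. Bmp2 and Spp1 were lower by less, with log2 ratios of -0.70 and -0.55.

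RTT_ROSA26 against RTT compares the 2 resistant tumours in which Ptgs1 and Ptgs2 were not targeted. Of 2566 genes 28 (1.09%) were at least 2-fold higher and 51 (1.99%) at least 2-fold lower in RTT_ROSA26. No class I gene of the 7 compared passed 2-fold, and of the 3 compared interferon-stimulated genes only Cxcl10 did, lower in RTT_ROSA26. In the restricted cells 1 of 7 compared class I genes, H2-K1, was at least 2-fold lower in RTT_ROSA26, at 24.0 against 54.4 CPM. Over the 28 interferon-stimulated genes with a mean of at least 10 CPM the median log2 ratio was -0.91, with 21 lower and 7 higher, beside -0.04 over all genes at that level, and it was -1.60 over 12 genes in the restricted cells. Gbp2, under the 50 CPM needed for the comparison, was at 2.90 CPM in RTT_ROSA26 and 38.7 CPM in RTT. The interferon median was -0.37 with CPM + 10, -0.41 in load 2 and 0.0282 with equal weight for each cell, so its direction was not kept in each setting. The class I median, -0.31 over 15 genes, was above 0 in loads 1 and 2 (0.13 and 0.37), with equal cell weights (0.32) and with cells of any name and 4 markers (0.31). The highest genes were Hba-a1 (log2 ratio 4.98), Fdps (2.12), Pmvk (2.04), 3830403N18Rik (1.82) and Idi1 (1.79). Fdps, Pmvk and Idi1 encode enzymes of the mevalonate pathway that leads to cholesterol. Fdps was at 183 CPM in RTT_ROSA26 and 41.2 CPM in RTT (ratio 4.44, 3.86 to 5.12), and its loads did not overlap (79.7 to 228 against 34.9 to 49.4 CPM).

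The lowest genes were Rorb (log2 ratio -4.06), a nuclear receptor, Gem (-3.26), a small GTPase, Sparcl1 (-3.18), a matrix protein related to Sparc, Ctsk (-3.04), the collagen-degrading protease cathepsin K, and Sema5a (-2.69), a semaphorin. For Ctsk 36.0% of the UMIs in RTT lay in 1 cell, and the restricted cells held 75.9 CPM in RTT and 11.5 CPM in RTT_ROSA26 (log2 ratio -2.63). Rorb was detected in 50.6% of the RTT cells and 6.78% of the RTT_ROSA26 cells, and after thinning in 49 of 245 and 0 of 57. Il11 (-1.34), Igfbp3 (-1.16) and Bmp2 (-1.09) were also more than 2-fold lower, while Mgp was higher by 0.82 on the log2 scale. In the restricted cells Il11 (-1.69) and Igfbp3 (-1.17) were still past 2-fold, Bmp2 (-0.97) was not, and Mgp (1.05) was past 2-fold. Ptgs1 (-0.55) and Ptgs2 (-0.54) differed by less than 2-fold.

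The NTT tumour gave too few cells for a comparison of the same kind. Its 6 cells had 39454, 38140, 15828, 10075, 6372 and 3422 UMIs. The markers separated them: 5 had 4 or more of the 7 markers and 4 had Hmga2, with 32 UMIs in the second largest. The largest cell carried all 2124 UMIs of the haemoglobin gene Hbb-bs, and the third largest was the fibroblast-gene-rich cell, with 172 of 198 Col1a2 UMIs. Only 1 cell, of 6372 UMIs, was under 2000 leukocyte CPM, and it had 3 UMIs of Hmga2 and 1 of Pax3. Against RTT, 278 (11.4%) of 2432 genes were at least 2-fold higher and 415 (17.1%) lower.

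Haemoglobin genes (Hbb-bs, Hbb-bt, Hba-a2 and Hba-a1) and Hpgd, a prostaglandin-degrading enzyme, headed the higher genes, with log2 ratios of 12.88, 10.98, 10.31, 9.91 and 7.55. For each of these 5 genes 1 cell held every UMI in NTT. The lowest were Chrna1, Nppb, Ptgs1, Mfsd1 and Unc5b, which had no UMI in NTT. At a limit of 3 counts, Chrna1, a muscle-type acetylcholine receptor subunit at 168 CPM in RTT, was at least 6.34-fold lower and Ptgs1 at least 3.24-fold lower. The two-sided intervals of these ratios are wider and reach 0.194 and 0.380. The collagen list median was 1.00 with all cells and -0.64 without the 1 NTT and 4 RTT cells rich in fibroblast genes. Class I and interferon-stimulated genes had medians of 2.78 and 3.77, beside -0.08 over all genes, in a sum where 5 of 6 cells were leukocyte-rich.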

How the data were processed

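Per the labels, tumours were digested, live CD45+ cells were sorted, and samples were labelled with oligonucleotide tags, pooled and loaded 3 times on a 10x Genomics 3' chip. The authors deposited UMI counts of 32285 genes in 33368 cells with a table of sample and cell type, and the submitters' processing notes name Cell Ranger, Seurat 4.3.0 and mm10. All cells passed the filter the study states (more than 1000 genes, mitochondrial UMIs below 15% and ribosomal below 40%). Doublets were not called here. Samples and cell names were taken as deposited.

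Counts of the 351 cells were summed per sample and scaled to CPM. Log2 ratios used CPM + 1. Genes were compared at 50 CPM and 10 UMIs or more in the higher sample and called at 2-fold, and list medians used genes with a mean of 10 CPM or more. Intervals (exact Poisson, Clopper-Pearson and conditional binomial, 95%) cover counting error only, and no test was run since each group has 1 sample. Named genes were the 7 markers, up to 5 leading genes of each list with those of a defining role, the 5 highest and 5 lowest ratios of each comparison, Ptgs1 and Ptgs2, and the 10 genes highest over other cells. Members, lists and rules were chosen with earlier results of these data known. The added limits on leukocyte and fibroblast UMIs were chosen after seeing the data. The ratio script was tested on simulated data. Python 3.11.15, numpy 2.4.6, scipy 1.17.1, pandas 2.3.3 and edgeR 4.0.16 (TMM only, R 4.3.3) were used.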

Additional observations from a re-analysis of the deposited data

How the results depend on the processing

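No paired analysis was possible because no group holds more than 1 sample. The log2 ratios of the shares (-5.43, -1.26 and -1.86 for NTT against RTT, RTT_PTGS12KO against RTT_ROSA26 and RTT_ROSA26 against RTT) kept their direction in every setting run. Expression in NTT could not be compared again in single loads, among leukocyte-poor cells or among cells without Ptprc, where under 5 NTT cells were left. The cause of the changes below was not tested. RTT_PTGS12KO against RTT_ROSA26 is called KO and RTT_ROSA26 against RTT control.

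With CPM + 10, class I medians were 2.16 (NTT) and 1.42 (KO) and interferon medians 3.14, 1.29 and -0.37 (NTT, KO, control). TMM gave 644 genes lower in NTT and an interferon median of 3.52. Without a minimum CPM more genes were compared, so these counts are not out of the 2432 to 2566 genes used above. There, 4104 genes were lower in NTT, 466 higher and 453 lower in KO, and 186 higher and 676 lower in control. The KO medians were 0.23 (collagens) and 1.47 (class I), and the control collagen median was -0.21. With cells of any name and 4 markers, 152 (KO) and 105 (control) genes were higher, interferon medians were 3.498, 2.92 and -0.45, the control class I median was 0.31 and S100a8 was 1.43. Cells without Ptprc made up 0.0242% (NTT), 2.43% (RTT) and 0.253% (RTT_PTGS12KO), with interferon medians of 3.98 and -1.65, a class I median of -0.51 and 60 genes higher in control. With equal cell weights, NTT medians were 1.48, 3.66 and 4.79 (collagens, class I, interferon), KO 0.87 and 1.53 (collagens, interferon) and control -0.59, 0.32 and 0.0282.

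Leukocyte-poor cells gave shares of 0.0121% (NTT), 2.72% (RTT) and 0.253% (RTT_PTGS12KO), a share ratio of -7.81, collagen medians of 0.0818 and -0.13, interferon medians of 3.15 and -1.59 and Ccl11 at -0.60. Without cells rich in fibroblast genes, collagen medians were -0.64, 0.0205 and -0.0689 and Ccl11 was -0.50. With both limits, the RTT share was 2.69%, the share ratio -7.79, collagen medians -0.0230 and 0.0446 and interferon medians 3.15 and -1.60. Ptprc without thinning was in 22.1, 20.3 and 29.7% of cells.

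In load 1 the RTT share was 3.64%, 184 genes were higher and 141 lower in KO, KO medians were 1.24 (collagens) and 2.93 (interferon), and the control class I median was 0.13, with S100a8 at 1.37 in KO and Mgp at -0.0335 in control. In load 2, 219 and 153 genes were higher and lower in KO and 99 and 100 in control, KO medians were 0.00173 (collagens), 1.17 (class I) and 2.82 (interferon), control medians 0.37 (class I) and -0.41 (interferon), and S100a8 was 0.16. In load 3, 117 genes were lower in KO and 86 higher and 96 lower in control, KO medians were -0.11, 2.38 and 2.99, control medians -0.66 (class I) and -1.61 (interferon), and Ccl11 was -1.003. Of the other values for shares, counts and main lists, 150 stayed within their counting error or 1.5-fold. Few cells per sample and 1 sample per group limit every value.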

Other observations

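Genes of cholesterol synthesis and uptake, a set of 21 put together after Fdps, Pmvk and Idi1 had been seen, were higher in RTT_ROSA26 than in RTT in all 16 that reached a mean of 10 CPM, a count that includes those 3 genes. Of the 9 that reached 50 CPM, 6 were at least 2-fold higher, and 3 of 6 without the 3 genes, where 1.09% of all genes compared were. The median log2 ratio was 1.09 over the 16 genes and 0.84 over the 13 others, beside -0.04 over all genes. It was 1.23 in the restricted cells and -0.58 in the other cells of the same tumours. Between RTT_PTGS12KO and RTT_ROSA26 the median was -0.25, with none past 2-fold.

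Trbc2, the constant region of the T cell receptor beta chain, was at 141, 195 and 76.3 CPM in the cells named Myofibrobl of RTT, RTT_ROSA26 and RTT_PTGS12KO, and at 142, 205 and 91.8 CPM in the restricted cells. The macrophage class named for C1q had 1.48 to 1.65 CPM, the NK cell class 137 to 180 CPM in the 3 samples where it was read out, and the CD8 T cell class 1413 CPM in NTT and 1002 CPM in RTT_PTGS12KO. Cd3e, Cd3d, Cd3g and Cd8a had no UMI in the cells named Myofibrobl, and the origin of the Trbc2 UMIs was not tested. Trbc2 was detected in 75.9, 83.1 and 62.2% of the cells, and after thinning in 34.7, 57.9 and 24.3%. Cdkn2a, which the line lacks by the study's description, was at 13.6, 14.1 and 8.74 CPM and at most 0.130 CPM in the other cells; whether these UMIs lie outside the deleted part was not tested.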
